A study of Homo sapiens with 5 samples.

Results

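The 55 replication-dependent histone genes of the major histone cluster on chromosome 6 were followed in 3 lists of H3K9me3 peaks from HEK293T, a human embryonic kidney cell line. They are the RefSeq protein-coding genes (GRCh38.p14) on chromosome 6 between 25 and 29 Mb whose symbols start with H1-, H2AC, H2BC, H3C or H4C, out of 20033 protein-coding genes on chromosomes 1 to 22, X and Y. The rule uses position and symbol and no measured value, but the genes were chosen with earlier results of these data known. The series holds 5 samples, which are chromatin immunoprecipitation (ChIP-seq) libraries of H3K9me3 labelled KD, EV and WT and inputs of EV and WT, with 1 library per group. KD is read here as the knockdown that the design text names KCNQ1OT1_K, whose suffix it does not explain, and EV as the empty-vector control. KCNQ1OT1 is a long non-coding RNA of an imprinted domain on chromosome 11. The sources used here do not say how the knockdown was made or whether a group is 1 clone, and these files hold no RNA measurement. The remaining list has no genotype in its name and was given to no group. Its peaks are set beside those of KD and EV by place, and its values enter no comparison between groups. Since each group is a single library, differences between them could not be set against replicates and were not tested. The lists hold no read counts, so the depth is unknown, and a shallower library gives fewer and narrower peaks at the same threshold.

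Replication-dependent histone genes make the bulk of the histones that package newly copied DNA in S phase. Each is a short gene, mostly without introns, and its messenger RNA ends in a stem-loop in place of a poly(A) tail. Many sit head to head in pairs that share the sequence between their starts, and NPAT and its partners switch them on in histone locus bodies. H3K9me3 is a mark of silenced chromatin, placed on repeats, pericentromeric sequence and the 3′ coding parts of zinc finger genes, and the H3C genes encode the protein that carries it. The marker of the set is H3C7, which encodes histone H3.1.

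The 55 genes comprised 6 H1, 12 H2A, 15 H2B, 10 H3 and 12 H4 genes. Their annotated bodies ran from 386 to 13229 bp with a median of 489 bp, and 50 were at most 1 kb long. They spanned 2.17 Mb, from 25726063 to 27893891, in 4 blocks when genes up to 200 kb apart were joined. The blocks held 2, 32, 5 and 16 genes and together made up 371 kb of the span.

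The sequence just before the start of transcription is shown for H3C7, H3C8, H3C6, H2BC10 and H2BC14, because peaks of at least 1 list lay over it. The printed stretches are the 250 bases before the start, from RefSeq (GRCh38.p14), 5′ to 3′ on the gene's strand. Capitals mark TATAAA, the core of the TATA box, CCAAT, the box bound by NF-Y, and ATTTGCAT, the octamer bound by OCT1 (POU2F1), each searched on both strands. H3C7 lies on the minus strand at chr6:26250636-26250885, H3C8 on the minus strand at chr6:26271414-26271663, H3C6 (the inner of its annotated starts) on the plus strand at chr6:26224885-26225134, H2BC10 on the plus strand at chr6:26272681-26272930 and H2BC14 on the plus strand at chr6:27814772-27815021.
H3C7: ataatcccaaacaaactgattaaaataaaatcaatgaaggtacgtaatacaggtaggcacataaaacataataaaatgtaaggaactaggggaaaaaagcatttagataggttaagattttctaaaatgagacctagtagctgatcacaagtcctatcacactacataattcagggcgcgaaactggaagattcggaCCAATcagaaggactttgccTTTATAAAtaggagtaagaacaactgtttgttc
H3C8: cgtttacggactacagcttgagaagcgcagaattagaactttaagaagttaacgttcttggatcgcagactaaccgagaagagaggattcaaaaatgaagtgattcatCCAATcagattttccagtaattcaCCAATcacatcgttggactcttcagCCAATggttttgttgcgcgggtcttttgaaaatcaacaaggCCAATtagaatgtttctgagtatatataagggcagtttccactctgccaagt
H3C6: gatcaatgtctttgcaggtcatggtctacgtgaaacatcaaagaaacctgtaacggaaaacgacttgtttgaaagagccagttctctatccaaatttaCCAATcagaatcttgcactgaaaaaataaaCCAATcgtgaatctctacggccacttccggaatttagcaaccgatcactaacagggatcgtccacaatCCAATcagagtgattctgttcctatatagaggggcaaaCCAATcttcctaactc
H2BC10: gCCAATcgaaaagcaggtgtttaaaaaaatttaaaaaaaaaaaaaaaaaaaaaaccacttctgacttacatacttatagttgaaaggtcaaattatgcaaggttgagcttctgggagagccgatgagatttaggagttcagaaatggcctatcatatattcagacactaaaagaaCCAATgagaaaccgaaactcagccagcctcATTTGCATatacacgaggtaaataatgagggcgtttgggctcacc
H2BC14: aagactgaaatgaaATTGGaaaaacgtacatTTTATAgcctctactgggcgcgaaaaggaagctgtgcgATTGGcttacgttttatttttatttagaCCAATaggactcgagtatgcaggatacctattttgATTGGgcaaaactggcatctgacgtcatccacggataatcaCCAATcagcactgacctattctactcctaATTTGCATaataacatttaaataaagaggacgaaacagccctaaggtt
The H3C7 stretch holds a TATAAA whose reverse complement overlaps it and a single CCAAT, while those of H3C8 and H3C6 hold 4 CCAAT boxes each and no TATAAA. The octamer stands close to the start in both H2B genes. The H2BC14 stretch is also the one before H2AC14, which is read the other way 244 bp from it, so its boxes on the reverse strand face that gene.

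Of the 55 genes, 5 had a peak over at least 1 bp of the gene body in KD and 9 in EV. These were 9.09% and 16.4% of the genes, beside a background of 11.5% of all protein-coding genes in KD and 24.5% in EV. Most protein-coding genes are far longer and meet more peaks, and the background was 5.65% in KD and 7.25% in EV among genes no longer than the longest histone gene, and 5.11% and 5.49% among those of at most 1 kb. All 5 genes in KD and all 9 in EV had at least 10% of the body under peaks, beside 1.55% and 2.76% of all protein-coding genes, 4.0% and 5.08% of those no longer than the longest histone gene, and again 5.11% and 5.49% of those of at most 1 kb. Of the 50 histone genes of at most 1 kb, 4 (8.0%) had a peak in KD and 8 (16%) in EV. Of the other 478 genes of that length, 23 (4.81%) had one in KD and 21 (4.39%) in EV. The choice of that length came after the values were seen. In KD and EV alike, most of these other genes with a peak were TAF11L family members or loci whose symbols start with LOC. The histone genes H2AB2 and H2AB3 were among them in both. The loci with LOC symbols were assigned to no family here. How far these shares come from related genes was not tested.

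Peaks lay on H2A, H2B and H3 genes, and no H1 or H4 gene carried one in KD, EV or the list without genotype. There are 6 H1 and 12 H4 genes, all of at most 1 kb. Of all protein-coding genes of that length, 5.11% had a peak in KD, 5.49% in EV and 3.79% in the list without genotype. With sets this small the absence is near these shares, was not tested and is not read as a trait of these families. In KD the genes with a peak were H3C4, H2BC3, H2BC10, H2BC14 and H2AC14. In EV they were H3C3, H3C6, H3C7, H3C8, H2BC3, H2BC9, H2BC10, H2BC14 and H2AC14. H2BC3, H2BC10, H2BC14 and H2AC14 were covered in both, so 4 genes were shared, 1 had a peak in KD and not EV, and 5 had one in EV and not KD. Among all protein-coding genes these patterns took 9.85%, 1.64% and 14.7%, and among those no longer than the longest histone gene 4%, 1.65% and 3.25%. Among those of at most 1 kb, 6 genes in all (1.14%) had a peak in EV and not KD, and 4 of them were H3C3, H3C7, H3C8 and H2BC9. H3C7 and H2BC9 lay under the same EV peak, so these genes are not separate events.

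**Figure D1:**
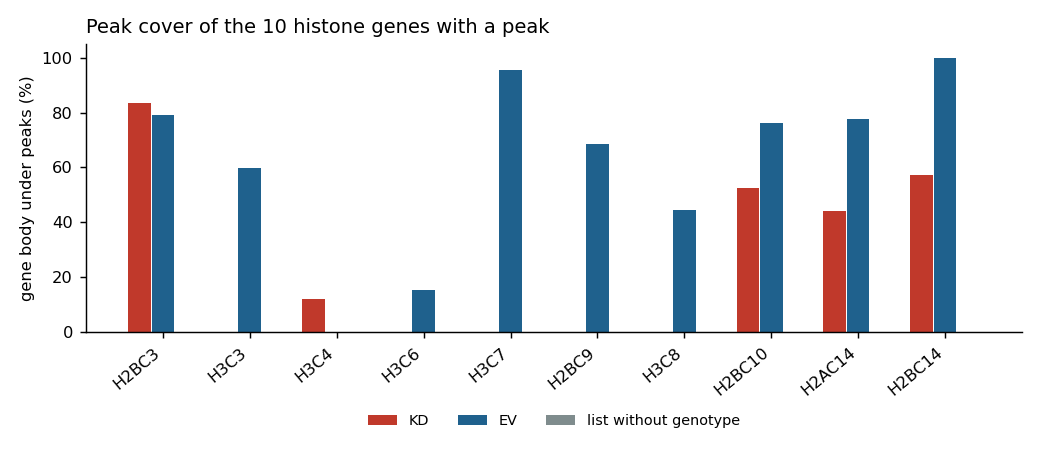
Share of the gene body under H3K9me3 peaks (%) for the 10 histone genes with a peak in any list, in order along the chromosome, with bars for KD, EV and the list without genotype. H3C3, H3C6, H3C7, H3C8 and H2BC9 have an EV bar alone, H3C4 a KD bar alone, and the list without genotype has no bar at any of them. The bodies of H3C4 and H3C6 run from their outer annotated starts.

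Of the 10 H3 genes, 1 had a peak in KD and 4 in EV. The background was 5.65% in KD and 7.25% in EV among genes no longer than the longest histone gene, and 11.5% and 24.5% among all. H3C7 had no KD peak, with the nearest 21.7 kb away, against an EV peak over 95.5% of its body. The EV peak, at chr6:26250164-26251930, was 1767 bp wide, and the authors gave it a fold of 3.37 over background and a −log10 p of 5.88. It took in the whole sequence printed above for H3C7 and ended inside H2BC9, a gene for H2B that starts 978 bp away in the opposite direction. H2BC9 likewise had no peak in KD, against 68.6% of its body in EV. Of the 2157 EV peaks within 1.3 times the −log10 p and 1.5 times the width of this one, 896 (41.5%, interval 39.4 to 43.7) were overlapped by KD. These limits of likeness were set after the data were seen, and the share was 32.5% to 46.2% with limits on the −log10 p of 2 to 1.1 times.

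H3C6 had no KD peak, against an EV peak over 15.5% of its annotated body. The body is 3296 bp long and has a second annotated start upstream. The peak ran from 112 bp before to 399 bp after the inner start, at chr6:26225023-26225534. It had the highest fold enrichment of any EV peak in the span, 5.16, and a −log10 p of 10.8. Among EV peaks with a −log10 p no lower, 3345 in number, the share with a KD partner was 92.3% (interval 91.3 to 93.1). It was narrow for its strength, at 512 bp, and of the 306 EV peaks like it in both strength and width, by the same limits, 168 (54.9%, interval 49.1 to 60.6) were overlapped, a share that was 41.0% to 58.3% with limits of 2 to 1.1 times.

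H3C3 and H3C8 each lie at the edge of a peak that was wider in EV than in KD. H3C3 had no KD peak, with the nearest ending 1151 bp short of it, against 59.9% of its body in EV. H3C8 had no KD peak, with the nearest 883 bp away, against 44.6% in EV. In both cases the KD peak lay inside or nearly inside the EV peak and covered the H2B gene on the other side. H3C4 was the reverse, with 12.1% of its 2510 bp body under a KD peak and no EV peak within 13.5 kb. That KD peak was 303 bp wide, at chr6:26196904-26197206, and lay 80 to 382 bp after the inner start of H3C4. Its fold over background was 3.62 and its −log10 p 4.32. The 2510 bp body of H3C4 begins at an outer annotated start that is also the start of H2AC7, and it takes in all of H2AC7. The 12.1% is a share of that longer body. H3C1, H3C2, H3C10, H3C11 and H3C12 had no peak in any of the 3 lists.

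Among the H2B genes, H2BC3 had 83.6% of its body under a peak in KD and 79.3% in EV. The KD peak was at chr6:26043307-26044232 and had a fold of 3.74 and a −log10 p of 4.05. The EV peak was at chr6:26043328-26045674, had a fold of 3.76 and a −log10 p of 5.33, and reached across the pseudogene H2AC5P into H3C3. H2BC10 had 52.5% in KD and 76.1% in EV. Its KD peak, at chr6:26272297-26273183, had a fold of 2.94 and a −log10 p of 3.69, and its EV peak, at chr6:26271193-26273297, had a fold of 4.12 and a −log10 p of 6.75. The EV peak ran from H3C8 over the pseudogene H2AC10P to H2BC10. The other 11 H2B genes had no peak in any list, among them H2BC4, H2BC5 and H2BC12, whose annotated bodies exceed 8 kb, and H2BC1, which encodes a testis H2B.

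H2AC14 was the one H2A gene with a peak, and it shared that peak with H2BC14. H2AC14 had 44.3% of its body under a peak in KD and 77.5% in EV, and H2BC14 had 57.3% in KD and 100% in EV. The KD peak, at chr6:27814567-27815289, had a width of 723 bp, a fold of 3.28 and a −log10 p of 4.06. The EV peak, at chr6:27814409-27815881, had a width of 1473 bp, a fold of 3.38 and a −log10 p of 5.28. Both peaks took in all 244 bp between the genes, which is the H2BC14 stretch printed above apart from its first bases. H2AC1, a testis H2A gene, and the 10 other H2A genes had no peak in any list.

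The 6 H1 genes, which encode linker histones, had no peak nearer than 2.27 kb in KD and 8.49 kb in EV. H1-5 was the nearest in both. For the 12 H4 genes the smallest distance was 2.86 kb in KD and 2.54 kb in EV, both at H4C13. No peak lay in H2AC7, H2BC8, H2AC8 or H2AC16, but at least 1 list had one within 2 kb. It was 1577 bp away in KD at H2AC7 and 795 bp away in KD at H2AC16, and the EV peaks nearest to these lay more than 10 kb off. At H2BC8 the distance was 1995 bp in KD and 918 bp in EV, and at H2AC8 2716 bp in KD and 1639 bp in EV. Over all 55 genes the median distance to the nearest peak was 13.5 kb in KD and 12.8 kb in EV.

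Most peaks at these genes lay over the starts of transcription. Promoter windows of 300 bp, from 250 bases before to 50 after a start, were found in RefSeq for 50 of the 55 genes, 54 windows in all. H4C1, H4C3, H2AC12, H3C11 and H3C12 had none. In KD 4 of the 54 windows (7.41%) were under a peak and in EV 9 (16.7%), beside 1.1% in KD and 1.72% in EV of all 35116 promoter windows. The 4 KD windows were those of H2BC3, H2BC10, H2BC14 and H2AC14, covered over their full 300 bp. All 9 EV windows but the one of H3C6, with 162 bp, were covered in full. The H3C4 peak in KD lay past its window. The windows are not separate units, since those of H2AC14 and H2BC14 overlap and lay under the same peak in each list. In EV the same peak also covered the windows of H2BC3 and H3C3, another those of H3C7 and H2BC9, and another those of H3C8 and H2BC10.

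**Figure D2:**
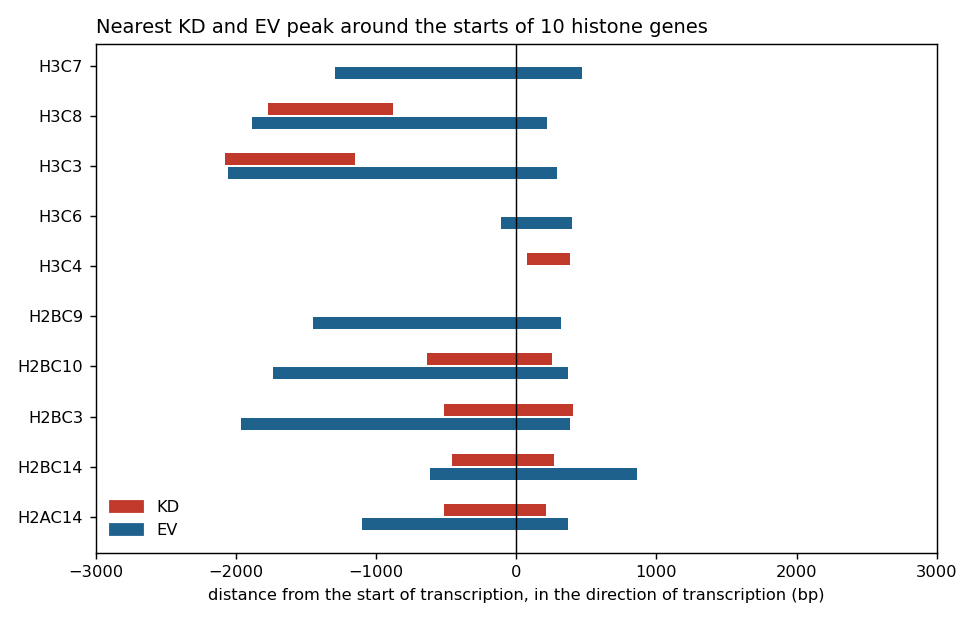
Extent of the nearest KD peak (upper bar) and EV peak (lower bar) around the start of transcription of the 10 histone genes with a peak, in bp along the direction of transcription, drawn where it reaches within 3 kb. For H3C4 and H3C6 the inner start is used. EV bars cross the start at 9 genes and KD bars at 4, and the KD bar of H3C4 begins 80 bp after it.

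Peaks between neighbouring genes were counted by the families of the pair. Strands were known for 50 genes, which gave 14 pairs of neighbours that do not overlap and are read away from each other. Of the 3 such pairs of an H3 and an H2B gene, with 978 to 1670 bp between them, 2 had a peak in that interval in KD and 3 in EV. Of the 9 such pairs of an H2A and an H2B gene, with 193 to 247 bp between them, 1 had a peak in KD and 1 in EV, the H2AC14 and H2BC14 pair in both. The longer intervals offer more room for a peak, and the grouping was made after the values were seen. The intervals of H2BC3 with H3C3 and of H3C8 with H2BC10 each hold an H2A pseudogene. Of the 13 histone pseudogenes of the span, 3 had a peak in KD and 2 in EV. These were H2AC5P, H2AC10P and H2BC16P in KD, and H2AC5P and H2AC10P in EV. H2AC5P and H2AC10P lay under the peaks already counted at H2BC3 and H2BC10, so they are not separate events. Among the 36 genes of the span annotated as pseudogenes, transcribed ones apart, 3 had a peak in KD and 3 in EV.

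Promoter windows of these genes were poorer in G and C than the median window. The median GC content was 42.3% over the 54 histone windows and 58.7% over all 35116. It was 39.3% in the 9 windows under a peak in any list, all in EV, with a range of 36.7% to 42.3%, and 43.3% in the other 45. Families differed in this measure: the median was 41.3% for H2A, 41.3% for H2B, 41.5% for H3, 47.8% for H4 and 49.5% for H1. The 9 windows under a peak were all of H2A, H2B or H3 genes, so they differ from the other 45 in family too. Neither GC content nor the boxes below were compared between covered and other windows within a family. CCAAT on either strand was found in all 44 windows of H1, H2A, H2B and H3 genes, in 3 of 10 H4 windows and in 34.6% of all windows. The octamer ATTTGCAT was found in 9 of 11 H2A and 13 of 17 H2B windows, in 1 of 10 H3 windows and in 1.77% of all. TATAAA was found in 36 of the 54 windows and in 11.5% of all. Of the 9 windows under a peak, 4 held TATAAA, all 9 held CCAAT and 5 held the octamer, and of the other 45 these counts were 32, 38 and 18. These matches describe the letters and make no statement on bound factors. Some windows overlap, as those of H2AC14 and H2BC14 do, and the outer H3C4 window is also that of H2AC7. Some letters are thus counted more than once.

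In the blocks KD and EV had the same number of peaks at the deposited threshold, and 1 against 7 at a −log10 q of at least 2. Each list had 7 peaks in the 371 kb of the blocks, over 5133 bp in KD and 11434 bp in EV. In the rest of the span KD had 8 and EV 17. The KD/EV ratio of peak number was 1.00 in the blocks, 0.471 between them, 0.417 on chromosome 6 and 0.513 on all chromosomes. With the −log10 q of at least 2, a threshold applied by region after the data were seen, these ratios were 0.143, 0.273, 0.408 and 0.512, so the place of the blocks in this order turned round. For covered length these ratios were 0.449, 0.358, 0.319 and 0.408. Peaks stood at 18.8 per Mb in the blocks in KD and EV alike, against 4.45 per Mb between the blocks in KD and 9.46 in EV. The blocks are defined by where the genes lie, and with 7 peaks each these figures are coarse.

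**Figure D3:**
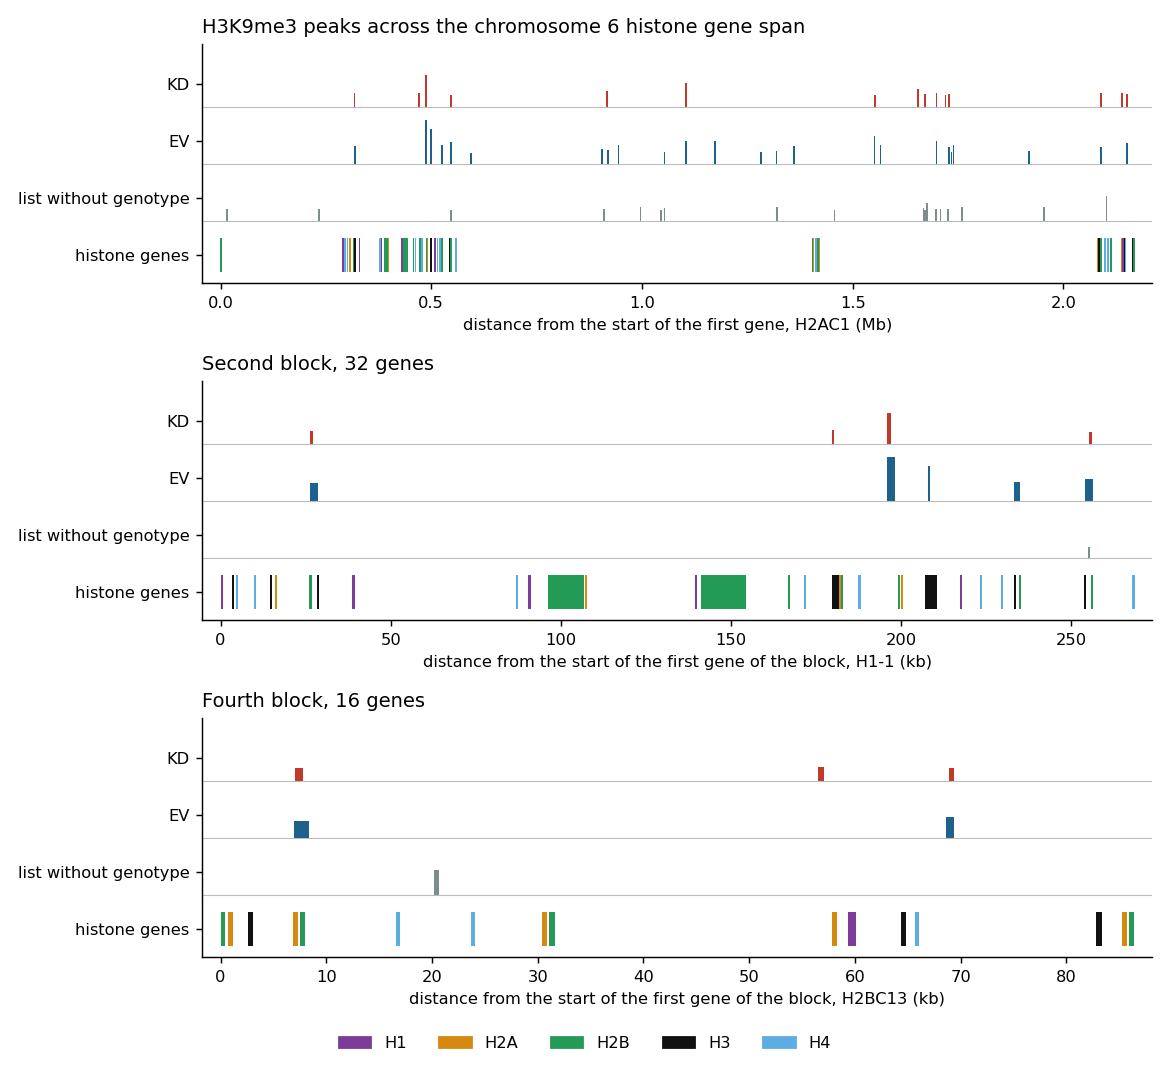
Peaks of KD, EV and the list without genotype over the histone genes, coloured by family, for the whole span and for the 2 blocks that hold peaks. The x axis is the distance from the first gene in Mb or kb, bar height is proportional to the −log10 p of the peak, and narrow peaks and genes are widened to be visible. KD and EV each have 7 peaks inside the blocks, and the tallest bar of both stands at the same place, about 200 kb into the second block.

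At the deposited threshold most block peaks of either list had a partner. Of the 7 KD peaks in the blocks 5 were overlapped by EV, and of the 7 EV peaks 5 were overlapped by KD (71.4% each, exact interval 29.04 to 96.3). Over chromosome 6, 74.9% of KD peaks had an EV partner and 31.2% of EV peaks a KD partner, and over all chromosomes 87.7% and 37.7%. The EV share in the blocks is thus higher in value than on all chromosomes, and its interval still spans that share. The KD share is lower in value than on chromosome 6 and on all chromosomes, and its interval spans both. With a −log10 q of at least 2 the blocks held 1 KD peak and 7 EV peaks, so most of these partners were lost. Where both lists had a peak, the KD one was the narrower at each of the 5 places. The widths were 926 bp in KD and 2347 bp in EV at H2BC3, 887 and 2105 bp at H2BC10, and 723 and 1473 bp at H2AC14 and H2BC14.

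The peak of the span with the highest −log10 p lay in no gene, and at the same place in both lists. It stood between H4C5 and H2BC8, at chr6:26212917-26214204 in KD, where its fold was 5.03 and its −log10 p 9.58. In EV it lay at chr6:26212807-26215281, had a fold of 4.31 and a −log10 p of 13.5, and ended 918 bp from H2BC8. Within the blocks, a second gene-free place with a peak in both lists lay between H4C13 and H3C12. It was at chr6:27876399-27876846 in KD and chr6:27876076-27876830 in EV, with −log10 p of 3.91 and 6.46. Between the blocks, another lay at chr6:27277860-27278413 in KD and chr6:27277796-27278407 in EV, with −log10 p of 3.57 and 8.63. KD alone had a peak over H2BC16P, at chr6:27863964-27864521, with a −log10 p of 4.31, which ended 795 bp from H2AC16.

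The KD peaks on histone genes were weak within their own list and the EV ones were not. The 4 KD peaks had −log10 p of 3.69 to 4.32, below the KD list's median of 4.98, and the 5 EV peaks 5.28 to 10.8, above the EV median of 4.67. All 4 KD peaks had a −log10 q below 2, so with that threshold 0 histone genes had a peak in KD and 9 in EV. These are the authors' values, each against its own list, and the difference in depth or enrichment between the libraries was not tested. Histone genes of 1 family are alike in coding sequence, and the sources used here do not say how reads matching several copies were treated, so the placement of peaks over coding sequence is uncertain.

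**Figure D4:**
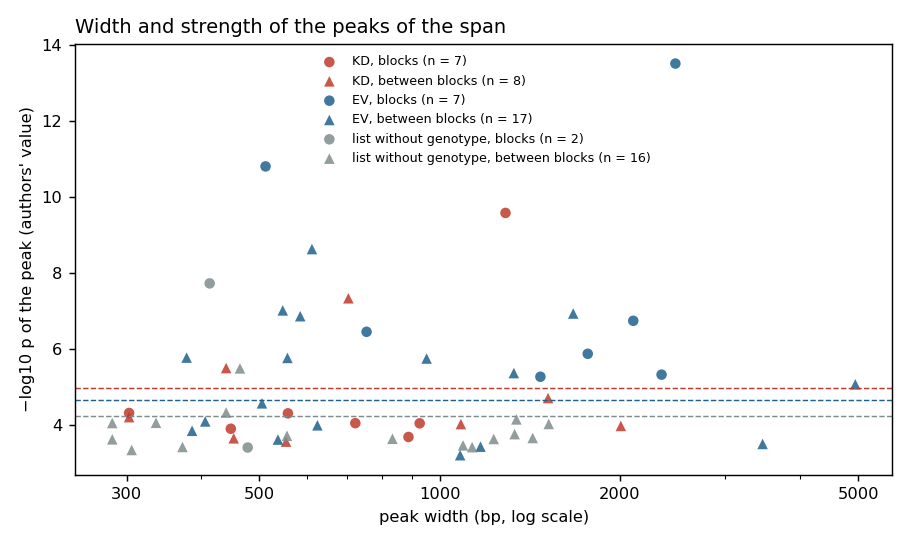
Width (bp, log scale) against the −log10 p of each peak of the span, for peaks in the blocks (circles) and between them (triangles), with a dashed line at the median of each whole list. Of the 7 KD circles, the one at 9.58 lies above the KD median of 4.98, and all 7 EV circles lie above the EV median of 4.67.

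Between the blocks the peaks lay mostly with zinc finger genes in KD. ZNF184, a KRAB zinc finger gene, had 3.999% of its 69100 bp under 3 peaks in KD, against 13.6% under 4 peaks in EV. ZNF391 had 5.21% in KD and no peak in EV, and ZNF322 5.98% in KD and 1.60% in EV. Of the 8 KD peaks between the blocks 6 lay in these genes, and of the 17 EV peaks 5 did. The widest peak of the span in both lists was in ZNF184, with 2007 bp in KD at chr6:27454229-27456235 and 4943 bp in EV at chr6:27451776-27456718. Of all 13 zinc finger genes between 25 and 29 Mb, 3 (23.1%) had a peak in KD and 2 (15.4%) in EV. Of all protein-coding genes, 11.5% had one in KD and 24.5% in EV, so the EV share was below that background. With 13 genes these shares are coarse and were not tested. The 6 butyrophilin genes and the 4 SLC17A transporter genes had none in either, and sets this small are not read against the same background. Of 98 transfer RNA genes in the span, 0 had a peak in KD and 1 in EV, TRW-CCA3-1, whose peak had a −log10 p of 3.21. The share over all transfer RNA genes was not computed.

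Histone genes elsewhere in the genome are set beside the backgrounds given above. Of 15 replication-dependent histone genes on other chromosomes, 1 (6.67%) had a peak in KD and 0 in EV. That gene was H3-4, a testis H3 gene on chromosome 1, with 72.3% of its body covered in KD. Of 22 replication-independent histone genes, 2 (9.09%) had a peak in KD and 4 (18.2%) in EV. These were H2AB2 (41.3% in KD and 66.3% in EV) and H2AB3 (62.4% and 57.7%) in both lists, which encode near-identical short H2A variants on X, so their values are uncertain. H2BW1 and H2BW2, testis H2B genes on X, had no peak in KD and 11.4% and 61.9% in EV. Of 26 genes for the transcription factors and processing factors of histone messenger RNA, 1 (3.85%) had a peak in KD and 5 (19.2%) in EV, beside 11.5% and 24.5% of all protein-coding genes, and 0 reached 10% of the body in either. YY1, a zinc finger transcription factor, had 3.73% in KD and 0.884% in EV. CASP8AP2, which encodes the histone locus body protein FLASH, had no KD peak and 1.09% in EV. NPAT, HINFP and SLBP had no peak in KD or EV.

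In the list without genotype 0 of the 55 histone genes had a peak, beside a background of 7.26% of all protein-coding genes, 2.08% of those no longer than the longest histone gene and 3.79% of those of at most 1 kb. At 10% of the body the background was 0.774%. None of the 54 promoter windows was under a peak of this list, beside 0.359% of all windows. The nearest of its peaks came within 492 bp of H2BC10 and 547 bp of H3C8. That peak, at chr6:26271961-26272438, had a width of 478 bp and a −log10 p of 3.42, and lay inside the EV peak over H3C8 and H2BC10. It overlapped the KD peak there by 142 bp, which made this the single place in the blocks with a peak in all 3 lists, out of 10 places with a peak in any.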

How the data were processed

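Chromatin of HEK293T cells was immunoprecipitated for H3K9me3 and sequenced. Reads were aligned with Bowtie2 and peaks called with MACS2 on GRCh38, per the submitters' processing notes. The sources used here do not give versions, calling options, control library, filters, pooling or depth. The 3 deposited lists of broad peaks give each peak a fold enrichment (a ratio over the caller's background), a −log10 p, a −log10 q and a score, all the authors' values. The score repeats −log10 q and was not used. These values describe peaks of their own list. The lists named KD and EV were matched to their samples by name. Inputs and WT were not analysed here as groups.

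Coordinates count from 1. Genes came from a RefSeq table of GRCh38.p14 with 59675 genes on chromosomes 1 to 22, X and Y, promoter windows from a RefSeq table of the same build. Overlap, at least 1 bp, was computed in Python 3.11.15 with numpy 2.4.6 and pandas 2.3.3. On simulated peaks it gave the same counts as bedtools 2.31.1 for all 1049 protein-coding genes of chromosome 6. Intervals are exact Clopper-Pearson 95% intervals (scipy 1.17.1), and those printed for shares of peaks cover counting error over peaks only. Those of covered shares, used only to judge the alternatives, count each base as a separate trial. Since a few peaks make all the cover, they are too narrow. Plots were drawn with matplotlib 3.10.9. Named genes are those with a peak in the body or within 2 kb in any list, with H3C7, the members of the other gene lists with a peak, and the strongest and widest peaks of the span; the text gives a selection. The genes and lists were chosen with earlier results of these data known. INTS11 stood under 2 names among 27 listed, leaving 26 genes. Alternatives were other thresholds, overlap minima, windows, merging and equal peak numbers.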

Additional observations from a re-analysis of the deposited data

Results flagged for a closer look

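The list without genotype held a peak between H4C11 and H4C12 that neither KD nor EV had. It lay at chr6:27827712-27828124, 3.23 kb from H4C11 and 3.05 kb from H4C12, where its fold over background was 5.05 and its −log10 p 7.73. It was 413 bp wide and in no annotated gene. Of that list's 14362 peaks, 89.97% had a −log10 p no higher. It was picked out because it is a signal in data outside the comparison of KD with EV.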

How the results depend on the processing

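Of 55 alternative values, 43 stayed near the main one, judged by the ratio for counts and by the counting interval for shares. For covered shares that interval counts bases as if they were independent and is too narrow, 2.19% to 2.42% in KD. Whether a covered share stayed or moved is thus a label only. Some of these could not move. A stricter setting cannot raise the 0 of the list without genotype, and equal peak numbers leave KD as it is. With a −log10 q of at least 2, 0 histone genes and 0% of their summed bodies were under KD peaks, the span held 4 KD peaks and 2 of the list without genotype, and 11.1% of the EV peaks of the span (2 of 18) were overlapped by KD. At a fold enrichment of at least 3 the KD covered share was 1.90%, against 2.30% in the main setting, and the span held 15 EV peaks. At least 50% of the gene body under peaks left 3 genes in KD. Extending each gene by 1 kb gave covered shares of 2.13% in KD, 5.80% in EV (5.44% in the main setting) and 0.335% in the list without genotype, where 2 genes then had a peak. The number of genes with a peak ran from 0 to 7 in KD and from 7 to 10 in EV over the alternatives run. Equal peak numbers removed no KD peak, since that list is the shortest. No paired analysis was possible because each group has 1 library, and leaving out a replicate was not possible for the same reason. Depth is unknown, so a missing peak may lie below detection.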

Other observations

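In the list without genotype, 16 of its 18 peaks in the span lay between the blocks, at 8.91 per Mb against 5.38 per Mb in the blocks. Of these 16, 7 lay in ZNF322, ZNF391 and ZNF184. ZNF391 had 10.6% of its body under 3 peaks and ZNF184 4.46% under 3 peaks. SLC17A1, a phosphate transporter gene whose annotated body spans H2AC1, had a single peak over 0.262% of its body. Beyond the histone genes, ZNF165 and ZSCAN31 had 4.84% and 7.12% under peaks, and neither had one in KD or EV. Of the 18 peaks, 2 were overlapped by KD and 4 by EV (11.1%, exact interval 1.38 to 34.7, and 22.2%, interval 6.41 to 47.6).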
